A study of Mus musculus with 20 samples.

Results

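The effect of NACET on retinal messenger RNA was compared between young and old mice, gene by gene, in all 20 libraries of the series. NACET (N-acetyl-L-cysteine ethyl ester) is a cell-permeable cysteine donor, and treated C57BL/6J mice, an inbred wild-type strain, received 50 mg/kg per day with the drinking water for 5 days. Each library came from 1 retina of 1 mouse, so p-values measure the spread between mice. There were 4 young controls (119 days old, 2 labelled male and 2 female), 6 young NACET-treated mice (4 males of 129 days and 2 females of 119 days), 4 old controls (668 days) and 6 old NACET-treated mice (2 each of 668, 581 and 574 days), and all 10 old mice were labelled male. For 1 young treated female, replicate 6, the batch tag gives 129 days in place of 119. The quantity described here is the interaction, that is, NACET minus control in old mice less NACET minus control in young mice, on the log2 scale. A negative interaction means that the NACET estimate was lower in old than in young mice.

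Cysteine supply limits the synthesis of glutathione, the main small-molecule antioxidant of cells, and the retina is a tissue with high oxygen use and constant exposure to light. The neural retina holds rod and cone photoreceptors, bipolar, amacrine, horizontal and ganglion cells, Muller glia, microglia and vessels, but no stratified epithelium. A dissected retina can bring along pieces of its neighbours, such as the pigment epithelium behind it, the lens and ciliary body in front of it, or surface epithelium of the cornea and conjunctiva. Keratin 5 (Krt5) and desmoplakin (Dsp), which anchors keratin filaments at desmosomes, mark such surface epithelium, whereas Taok3, a kinase of the TAO family that acts upstream of the p38 and JNK stress kinases, is widely expressed in neural tissue.

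Gene counts per library lay between 17.7 and 31.1 M. Rod genes summed to at least 69600 CPM (gene counts scaled to the normalized library size) in every library. Several libraries stood apart in genes of neighbouring tissues. The summed level of 43 genes of corneal and conjunctival epithelium ranged from 52.8 to 77.1 CPM in young controls and from 45.5 to 84.3 CPM in old NACET-treated mice. It reached 148, 394, 790 and 423 CPM in young NACET replicates 2, 3, 4 and 5 and 846 CPM in old control replicate 2. Lens genes summed to 12800 CPM in old NACET replicate 1 and to at most 26.6 CPM elsewhere, and pigment epithelium genes to 295 CPM in young control replicate 4 against 61.3 to 82.6 CPM in the other young controls. The library of old control replicate 4, labelled male, held 59555 counts of Xist and 1 Y-linked count, as the libraries labelled female did. Genes were therefore divided into 632 carry-over genes (members of 6 lists of neighbouring tissues, or genes whose level followed such a list across libraries with a correlation of at least 0.7 after removal of group means) and 16361 other genes, called retinal genes below although carry-over that no list covers may be among them.

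Of 16993 genes tested, 0 (0%) had an interaction at an adjusted p under 0.05 in the quasi-likelihood test of edgeR, and the smallest adjusted p, 0.0678, was shared by 26 genes. At an unadjusted p under 0.05 there were 1052 genes (6.19%), with 667 negative (3.93%) and 385 positive (2.27%) interactions. By class this was 5.15% of the retinal genes (479 negative, 363 positive) and 33.2% of the carry-over genes (188 negative, 22 positive). Shares of all genes given below include both classes. DESeq2 called 86 genes (0.403% of those with an adjusted p) at an adjusted p under 0.05, of which 83 were negative. Of the 86, 61 were carry-over genes, and 14 negative and 3 positive calls were retinal genes. The rest were not tested in edgeR and so had no class. Taken at each age by itself in the same fit, NACET against control had 1 call (0.00588%) and 1773 genes at an unadjusted p under 0.05 (10.4%) in old mice, and 0 calls (0%) and 1045 such genes (6.15%) in young mice. The 2 NACET estimates had opposite signs in 45.2% of all genes tested. Opposite signs with an unadjusted p under 0.05 at each age were found in 129 genes (0.759%), and the same sign in 131 genes (0.771%). Of the 129 genes, 121 were lower under NACET in old mice and higher in young mice (0.712%), and 99 of these were carry-over genes. The other 8 were higher in old and lower in young mice (0.0471%), all of them outside the carry-over class. Among the 8, Slc13a4, a sulfate transporter named after its values were seen, was 18.2 CPM in young control replicate 4 and 11.4 CPM in old NACET replicate 3 and between 0.871 and 3.08 CPM in the other libraries, so its place among the retinal genes rests on the lists used here. The 30 retinal genes of opposite sign made up 0.183% of the retinal genes, and the 99 carry-over genes 15.7% of the carry-over genes. With 1 library left out, the retinal genes of opposite sign numbered from 14 (without old control replicate 2) to 85 (without young control replicate 1).

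**Figure D1:**
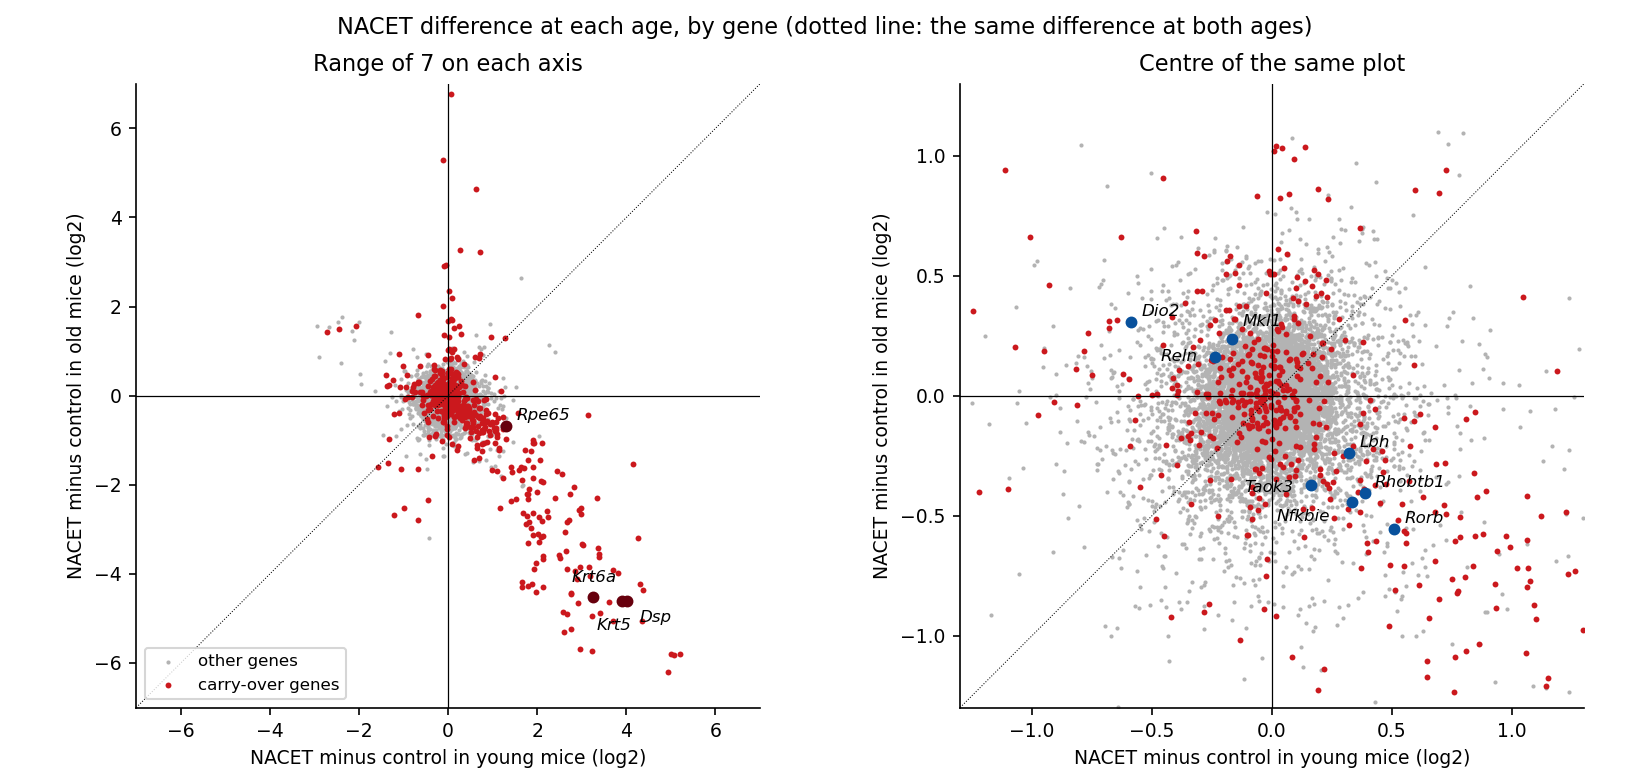
NACET minus control in young mice (horizontal axis, log2) against the same difference in old mice (vertical axis, log2), 1 point per gene tested. Red points are carry-over genes and grey points the other genes; 3 genes beyond 7 on an axis are not drawn, and the right panel shows the centre. Krt5 and Dsp lie near -4.60 in old and 3.90 to 4.01 in young mice, and Taok3 and Rorb lie in the same quadrant closer to the centre.

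Across the 16993 genes, the old and young estimates had a Pearson correlation of -0.526 and a Spearman correlation of 0.077. Over the 16361 retinal genes the values were -0.013 and 0.118. Both are descriptions across genes, which share libraries and are not independent replicates. In the plot of old against young estimates, the arm of points in the lower right quadrant was made of carry-over genes. Among retinal genes with an unadjusted p under 0.05 the median size of the interaction was 0.363, against 3.05 among such carry-over genes.

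Taok3 (mm9, chr5:117570138-117725228, plus strand, protein coding) had the smallest p of the retinal genes. Its level was 178, 181, 145 and 152 CPM in the 4 young controls and 164, 182 and 215 CPM (lowest, median, highest) in young NACET-treated mice. In old controls it was 187, 189, 181 and 185 CPM, and in old NACET-treated mice 127, 142 and 158 CPM. The old groups did not overlap, all 6 treated mice being lower, while the young groups overlapped. The NACET estimate was -0.37 ± 0.08 (SE, unadjusted p = 5.86e-05) in old and 0.16 ± 0.08 (unadjusted p = 0.0456) in young mice. The interaction was -0.54 ± 0.11, with an edgeR adjusted p of 0.0678 and a DESeq2 adjusted p of 0.00239. Non-overlap in old mice in either direction was found in 641 genes (3.77%), and in young mice in 130 genes (0.765%).

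For the other TAO kinases the interaction was -0.06 ± 0.11 for Taok1 (unadjusted p = 0.615) and 0.02 ± 0.06 for Taok2 (unadjusted p = 0.777), neither of which passed the test. Of 18 tested genes of the TAO, p38 and JNK pathway, 2 had an unadjusted p under 0.05, both negative, against 3.93% of all genes, and 1 of the 2 was Taok3 itself. The other was Mapk9, which encodes JNK2 (interaction -0.14 ± 0.06, unadjusted p = 0.0297). Its mean level was 148 ± 6.78 CPM (SD, n = 4) in young controls, 151 ± 4.99 (n = 6) in young treated, 151 ± 4.98 (n = 4) in old controls and 139 ± 5.28 (n = 6) in old treated mice. The Hippo pathway, which TAO kinases can also activate, had 17 genes tested, with a median interaction of 0.02. Past an unadjusted p of 0.05, 2 of the 17 were positive, against 2.27% of all genes. They were Nf2 (0.12 ± 0.05) and Amotl1 (0.20 ± 0.10).

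The promoter window of Taok3 held 2 copies of AGGTCA, the core that nuclear receptors of the ROR and ERR families bind. Promoters are shown because Rorb and Esrrb, which encode nuclear receptors that recognise this core, were among the retinal genes of the same direction as Taok3. The windows run from 250 bases before to 50 bases after a transcript start in RefSeq (GRCm38.p6, a later build than the mm9 of the counts), and were read for 9 genes (Taok3, Rorb, Lbh, Lpin2, Rhobtb1, Mfap3l, Esrrb, Reln and Mkl1, listed there as Mrtfa), all 9 matched, with 18 starts. AGGTCA, searched on both strands, was found in 1 of the 18 windows, and TAATCC, the core bound by the photoreceptor factors CRX and OTX2, in 0. Of 32851 promoters of the same length in the table, 16.3% held AGGTCA and 7.06% held TAATCC. Capitals mark AGGTCA in the Taok3 window (chr5:117119879-117120178, plus strand), and the 2 Rorb windows (chr19:19001068-19001367 and chr19:19111147-19111446, minus strand) hold neither motif.
Taok3: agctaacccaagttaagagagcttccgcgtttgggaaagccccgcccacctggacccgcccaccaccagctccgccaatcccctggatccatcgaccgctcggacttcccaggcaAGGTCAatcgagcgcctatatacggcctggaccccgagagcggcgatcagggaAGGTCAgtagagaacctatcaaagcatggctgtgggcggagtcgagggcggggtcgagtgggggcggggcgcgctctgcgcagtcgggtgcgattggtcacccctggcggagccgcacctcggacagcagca
Rorb first window: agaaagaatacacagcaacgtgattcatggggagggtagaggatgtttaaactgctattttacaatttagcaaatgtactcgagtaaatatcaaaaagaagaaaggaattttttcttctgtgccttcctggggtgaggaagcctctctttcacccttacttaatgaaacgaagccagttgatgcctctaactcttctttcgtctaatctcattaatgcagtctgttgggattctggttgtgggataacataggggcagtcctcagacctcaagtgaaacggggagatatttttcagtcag
Rorb second window: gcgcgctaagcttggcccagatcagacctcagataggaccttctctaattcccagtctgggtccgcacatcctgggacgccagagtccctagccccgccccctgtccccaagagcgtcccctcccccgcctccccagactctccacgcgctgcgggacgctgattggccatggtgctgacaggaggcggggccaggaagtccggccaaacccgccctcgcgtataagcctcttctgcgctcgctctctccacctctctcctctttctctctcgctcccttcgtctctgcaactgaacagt

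Rorb (mm9, chr19:19005095-19185686, minus strand), a nuclear receptor required for rod photoreceptor development and also expressed in horizontal and amacrine cells, had the largest opposite estimates among the retinal genes above 100 CPM in young controls that are named here. It measured 223, 186, 162 and 175 CPM in young controls and 184, 274 and 310 CPM (lowest, median, highest) in young treated mice. In old controls it measured 173, 144, 132 and 212 CPM, and in old treated mice 88.5, 106 and 164 CPM. Both pairs of groups overlapped, through young NACET replicate 2 and old NACET replicate 5. The NACET estimate was -0.56 ± 0.16 in old (unadjusted p = 0.00171) and 0.51 ± 0.16 in young mice (unadjusted p = 0.00410), and the interaction was -1.07 ± 0.22 (edgeR adjusted p = 0.0678, DESeq2 adjusted p = 0.0175).

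Lbh, a transcriptional cofactor of limb and heart development, measured 205, 154, 163 and 156 CPM in young controls and 175, 211 and 249 CPM in young treated mice. In old mice it measured 142, 145, 134 and 177 CPM in controls and 115, 125 and 142 CPM under NACET. The groups touched or overlapped at both ages, and the interaction was -0.56 ± 0.13 (edgeR adjusted p = 0.101). Lpin2, a phosphatidate phosphatase of lipid synthesis, measured 137, 130, 118 and 133 CPM in young controls and 138, 152 and 163 CPM in young treated mice, which did not overlap. In old mice it measured 115, 113, 106 and 126 CPM in controls and 90.8, 103 and 117 CPM under NACET, with overlap (interaction -0.39 ± 0.09). Rhobtb1, an atypical small GTPase, had a mean of 12.3 ± 1.60 CPM (SD, n = 4) in young controls and 16.0 ± 2.88 (n = 6) in young treated mice, and of 11.4 ± 1.68 (n = 4) and 8.63 ± 0.961 (n = 6) in old mice (interaction -0.79 ± 0.19). Mfap3l, a membrane protein, had an interaction of -0.36 ± 0.08, with old controls at 73.9, 74.8, 78.2 and 77.3 CPM and old treated mice at 59.6, 66.3 and 73.2 CPM, which did not overlap.

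Esrrb, an orphan nuclear receptor that is enriched in rod photoreceptors, fell outside the rule for named genes and is given because its values were seen. It measured 520, 442, 403 and 475 CPM in young controls and 543, 581 and 745 CPM in young treated mice, which did not overlap. Old mice had 377, 404, 330 and 443 CPM as controls and 245, 306 and 434 CPM under NACET, with overlap. The interaction was -0.72 ± 0.18 (edgeR adjusted p = 0.103, DESeq2 adjusted p = 0.0173). Of 14 rod marker genes, 0 had an unadjusted p under 0.05 for the interaction, against 6.19% of all genes, and their median was -0.02.

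The other 6 retinal genes named for this direction had means of at most 20.7 CPM in each group. Nfkbie, an inhibitor of the transcription factor NF-kappaB, measured 3.21, 3.97, 3.21 and 3.88 CPM in old controls and 2.20, 2.65 and 3.24 CPM in old treated mice (interaction -0.77 ± 0.17, edgeR adjusted p = 0.0949). Clic6, a chloride intracellular channel protein, had an interaction of -0.73 ± 0.17, Tmem72 of -1.80 ± 0.39 (edgeR adjusted p = 0.0791), Liph, a lipase that makes lysophosphatidic acid, of -1.87 ± 0.45, Tmem154 of -3.68 ± 0.83 and Krt8, a keratin of simple epithelia, of -2.49 ± 0.60. These genes followed a carry-over list less closely than the limit of 0.7 asks: the highest correlations were 0.607 for Tmem154, 0.576 for Liph, 0.493 for Nfkbie and 0.424 for Krt8 with surface epithelium, 0.558 for Tmem72 with pigment epithelium and 0.614 for Clic6 with connective tissue. For Taok3 the highest was 0.152, for Rorb 0.365 and for Lbh 0.300. Tmem154 and Liph were highest among old controls in replicate 2 (1.99 and 2.24 CPM), the library with the highest epithelial sum. With the epithelial mean as a covariate, the Tmem154 interaction was -1.18 (unadjusted p = 0.144), the Liph interaction -0.88 (unadjusted p = 0.0831), the Clic6 interaction -0.41 and the Krt8 interaction -1.59. Without the 5 libraries highest in epithelial genes, the Liph interaction was -0.62 (unadjusted p = 0.193). That fit kept only young NACET replicates 1 and 6 as young treated mice, so it had less power.

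In the opposite direction, higher under NACET in old mice and lower in young mice, the smallest p belonged to Mkl1 (mm9, chr15:80842711-81021187, minus strand), a coactivator of serum response factor that senses actin. It measured 30.8, 28.4, 35.4 and 33.6 CPM in young controls and 26.3, 29.1 and 30.1 CPM (lowest, median, highest) in young treated mice. Levels in old mice were 25.1, 25.4, 26 and 25.4 CPM in controls and 28.8, 30.1 and 31.5 CPM under NACET. The old groups did not overlap and the young groups did. The NACET estimate was 0.24 ± 0.06 in old (unadjusted p = 0.000527) and -0.17 ± 0.06 in young mice (unadjusted p = 0.00864), and the interaction was 0.40 ± 0.08 (edgeR adjusted p = 0.0678, DESeq2 adjusted p = 0.00656).

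Reln (mm9, chr5:21390272-21850523, minus strand), the secreted glycoprotein reelin that guides neuronal positioning and is made in the retina by amacrine and ganglion cells, had the second smallest p of this direction. It measured 266, 271, 240 and 272 CPM in young controls and 195, 220 and 250 CPM in young treated mice. In old mice it measured 208, 180, 185 and 182 CPM in controls and 201, 208 and 223 CPM under NACET. Groups overlapped at both ages by 1 control each, young control replicate 3 and old control replicate 1. The interaction was 0.40 ± 0.09 (edgeR adjusted p = 0.0998, DESeq2 adjusted p = 0.00903).

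Atp2a2, the calcium pump SERCA2 of the endoplasmic reticulum, measured 309, 305, 321 and 316 CPM in old controls and 343, 352 and 370 CPM in old treated mice, without overlap. Its means in young mice were 353 ± 11.0 CPM (n = 4) in controls and 350 ± 12.2 CPM (n = 6) under NACET, and the interaction was 0.19 ± 0.06 (DESeq2 adjusted p = 0.0186, edgeR adjusted p = 0.369). Slc6a12, a betaine and GABA transporter, was 5.29 to 6.25 CPM in old controls and 6.71 to 8.08 CPM in old treated mice (interaction 0.60 ± 0.17). Zbtb16, a zinc finger repressor, had an interaction of 1.43 ± 0.41, with young controls spread from 3.37 to 12.2 CPM.

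Dio2, the deiodinase that activates thyroid hormone, measured 25.1, 53.5, 40.3 and 36.6 CPM in young controls and 17.2, 28.4 and 30.8 CPM in young treated mice (young estimate -0.59 ± 0.17, interaction 0.90 ± 0.25). Hivep2, a zinc finger protein, measured 53.9 to 58.7 CPM in young controls and 45.5 to 52.9 CPM in young treated mice, without overlap (interaction 0.30 ± 0.08). Alk, a receptor tyrosine kinase of neurons, had an interaction of 0.57 ± 0.16, the protocadherin Pcdhb11 of 0.57 ± 0.15, Camk1g, a calcium-dependent kinase, of 0.45 ± 0.13, Sybu, which links transport vesicles to kinesin, of 0.28 ± 0.08, and Gm12680 of 0.85 ± 0.24. Old estimates were 0.31 ± 0.18 for Dio2, 0.09 ± 0.06 for Hivep2, 0.22 ± 0.12 for Alk and 0.17 ± 0.17 for Gm12680. None of these old estimates passed an unadjusted p of 0.05. The young Sybu estimate, -0.09 ± 0.06, did not pass it either. Of the 12 retinal genes named for a positive interaction, only Mkl1, Reln and Pcdhb11 passed it at each age. The edgeR adjusted p of Alk, Pcdhb11, Camk1g, Sybu, Gm12680, Dio2, Hivep2, Slc6a12 and Zbtb16 lay between 0.152 for Pcdhb11 and 0.339 for Camk1g, so none passed the test.

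**Figure D2:**
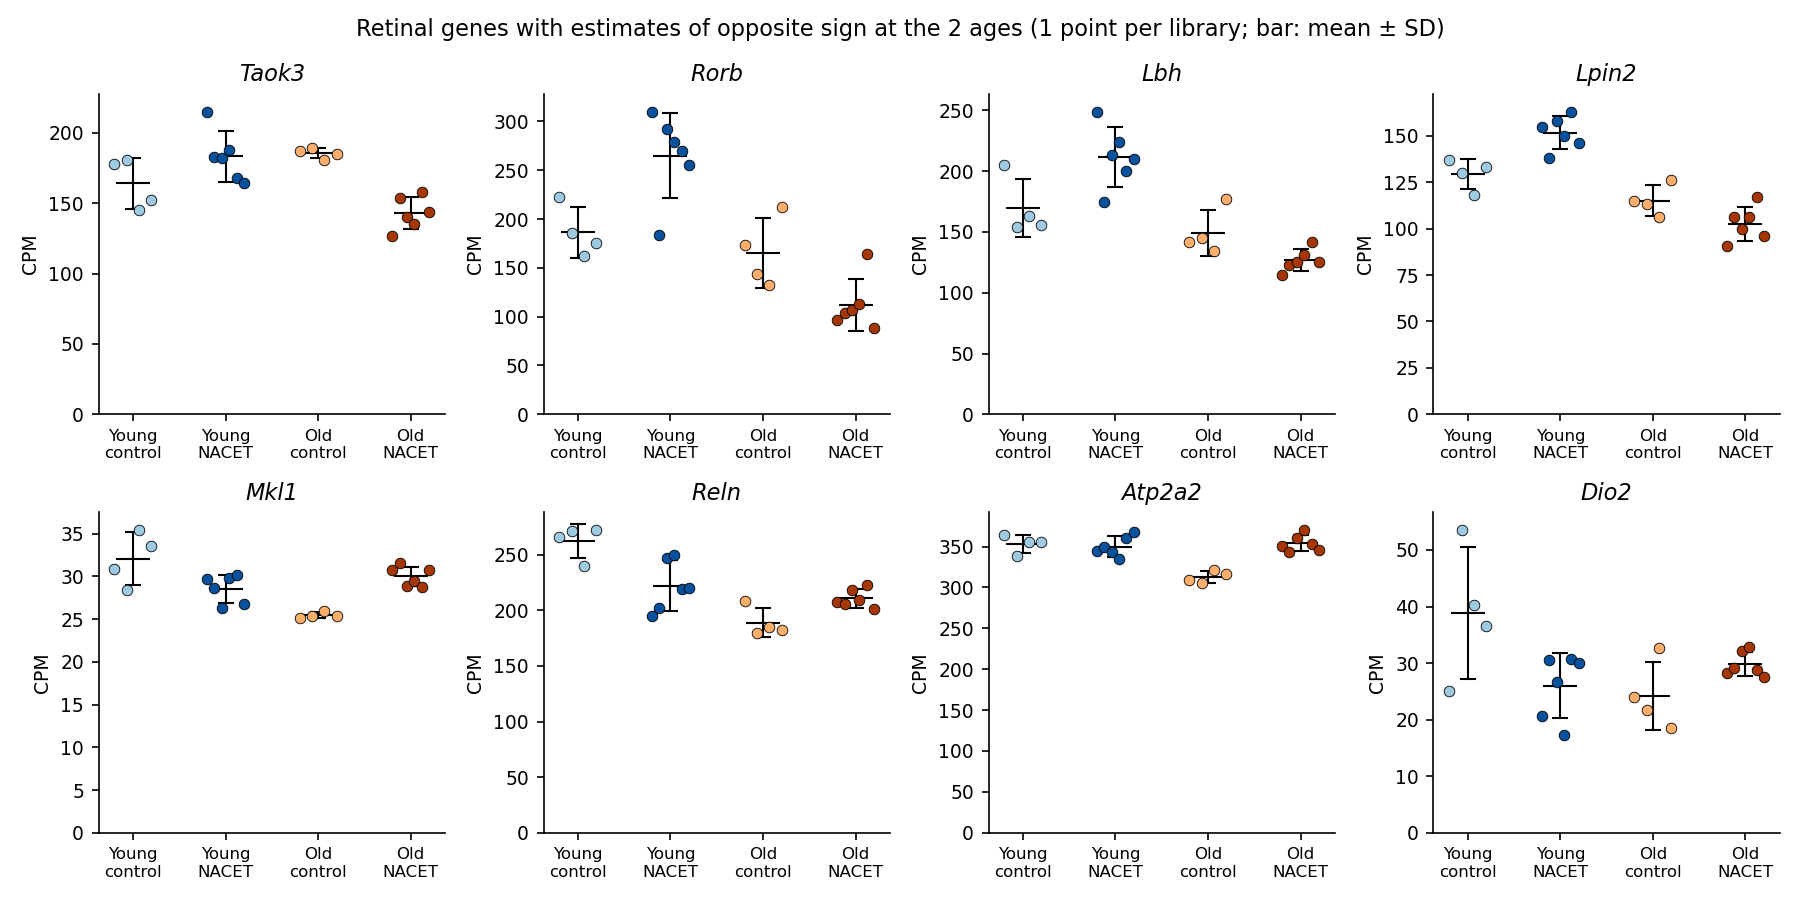
Levels of 8 retinal genes (vertical axis, CPM from 0) in each library of the 4 groups; points are libraries and bars the mean ± SD. Taok3, Rorb, Lbh and Lpin2 are lower under NACET in old and higher in young mice, and Mkl1, Reln and Dio2 the reverse, while Atp2a2 is higher in old treated mice with young means of 353 and 350 CPM; old control and old treated mice do not overlap for Taok3, Mkl1 and Atp2a2.

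In 1 gene the groups did not overlap at either age and moved in opposite directions (0.00588% of genes tested). This was the zinc finger gene Zfp773, named after its values were seen. It measured 1.85, 1.92, 1.92 and 1.69 CPM in young controls and 1.96, 2.38 and 3.18 CPM in young treated mice. The old mice measured 3.21, 3.23, 2.89 and 2.96 CPM in controls and 1.52, 2.00 and 2.75 CPM under NACET, and the interaction was -0.92 ± 0.22 (edgeR adjusted p = 0.102).

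The 12 retinal genes named for a negative and the 12 named for a positive interaction kept their signs in every alternative in which they were tested. These genes were chosen by the smallest p in the same libraries. Kept signs and p-values were therefore likely in advance and are no independent check. With the NACET-treated mice limited to the ages of the controls (119 and 668 days), 2 young females and 2 old mice remained treated. The lens-rich old NACET replicate 1 was among them. In that fit 12 of the 12 negative and 9 of the 12 positive genes kept an unadjusted p under 0.05, with 0 calls. Over all genes, 808 of 17181 tested were under that p. The Dio2 interaction was 0.61 (unadjusted p = 0.0961), the Sybu interaction 0.26 (unadjusted p = 0.0556) and the Atp2a2 interaction 0.1 (unadjusted p = 0.216). Taok3 then had an interaction of -0.42 ± 0.13 (unadjusted p = 0.00736, adjusted p = 0.997). Among libraries with under 1000 Xist counts, the Taok3 interaction was -0.47 ± 0.12, the Rorb interaction -0.80 ± 0.28, the Slc6a12 interaction 0.39 and the Zbtb16 interaction 0.69. With the epithelial mean as a covariate, 10 of the 12 negative and 10 of the 12 positive genes kept an unadjusted p under 0.05, and the Camk1g interaction was 0.3 (unadjusted p = 0.083). The adjusted p of the retinal genes also moved with the number of carry-over genes in the table: with all carry-over genes left out, the Taok3 interaction had an unadjusted p of 2.65e-05 and an adjusted p of 0.292. Without old control replicate 2 its interaction was -0.53 ± 0.11 (unadjusted p = 0.000162) and its adjusted p 0.848.

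Epithelial genes gave the largest opposite estimates. Krt5 measured 6.19, 1.08, 3.58 and 3.71 CPM in young controls and 1.12, 40.3 and 154 CPM (lowest, median, highest) in young treated mice. In old mice it measured 2.69, 171, 7.08 and 20.9 CPM in controls and 0.0433, 2.26 and 4.03 CPM under NACET. The groups overlapped at both ages, and the high levels were those of the libraries with a high epithelial sum. The interaction was -8.50 ± 1.63 for Krt5 and -8.61 ± 1.63 for Dsp (edgeR adjusted p = 0.0678 for each; DESeq2 adjusted p = 0.00102 and 0.000117). Dsp measured 0.674, 42.3, 2.40 and 3.84 CPM in old controls and 0.217, 0.571 and 0.743 CPM in old treated mice.

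Of the 43 genes of the epithelial list 35 were tested. Of these, 29 had an unadjusted p under 0.05, all negative, against 3.93% of all genes. A lower estimate in old and a higher one in young mice was found in 34, against 3779 of all 16993 genes. The list's median interaction was -4.92, with medians of -2.63 in old and 2.11 in young mice, against 0.0065 for the interaction over all genes tested. Besides keratins and desmosomal proteins the list's members included Trp63, the p63 factor of epithelial stem cells (-3.25), Aldh3a1, a crystallin-like dehydrogenase of the cornea (-6.94), and Krt12, the keratin particular to corneal epithelium (-8.25). Among the 8 carry-over genes with the smallest p were also Aqp3, a water and glycerol channel (-10.99 ± 2.12), the desmocollin Dsc3 (-10.81 ± 2.09), the keratin Krt6a (-7.77 ± 1.52), Trim29 (-7.22 ± 1.43) and the retinol dehydrogenase Adh7 (-8.53 ± 1.70). Fitted values of this size rest on libraries near 0: Aqp3, for example, was 0 in young NACET replicates 1 and 6 and in old NACET replicate 3, so these are no measure of fold.

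**Figure D3:**
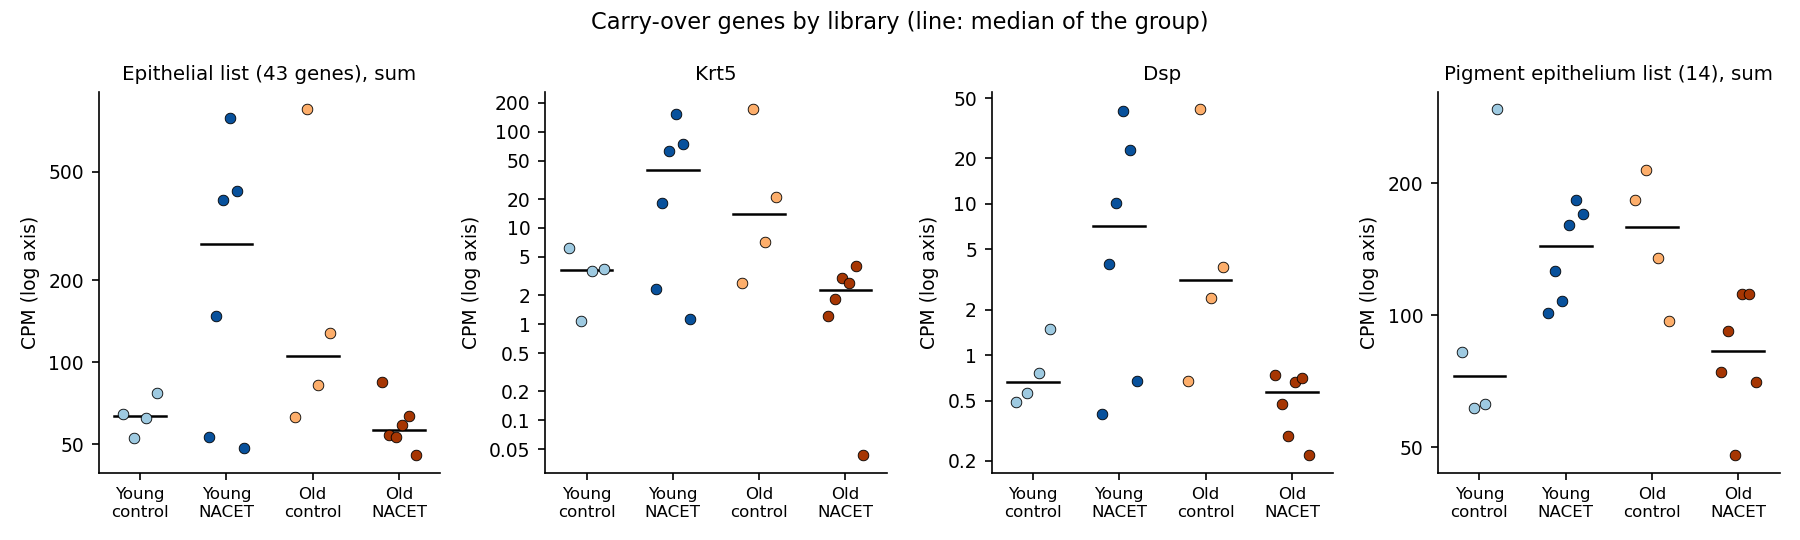
Summed CPM of the 43 epithelial genes, CPM of Krt5 and Dsp, and summed CPM of the 14 pigment epithelium genes (vertical log axes) by library in the 4 groups; lines are group medians. The epithelial sum is above 100 CPM in 4 young treated and 2 old control libraries, and the pigment epithelium sum is highest in 1 young control at 295 CPM.

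Without old control replicate 2, the list's median interaction was -3.25, and the genes of opposite sign past an unadjusted p of 0.05 at each age numbered 22 instead of 129. Without the 5 libraries whose mean log2 CPM over the epithelial list was above 1, which were chosen by that list's own level, the median was -0.28 and there were 28 genes of opposite sign, 0 of them carry-over genes. That fit kept only young NACET replicates 1 and 6 as young treated mice, so it had less power. Of the 8 named carry-over genes, 4 could still be tested. With the epithelial mean as a covariate the list's median was -0.09. That covariate is the mean of the same list, so a small median was set in advance. What brought epithelial transcripts into these libraries was not tested. In bulk tissue, fewer cells of a type and less RNA per cell cannot be told apart.

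**Figure D4:**
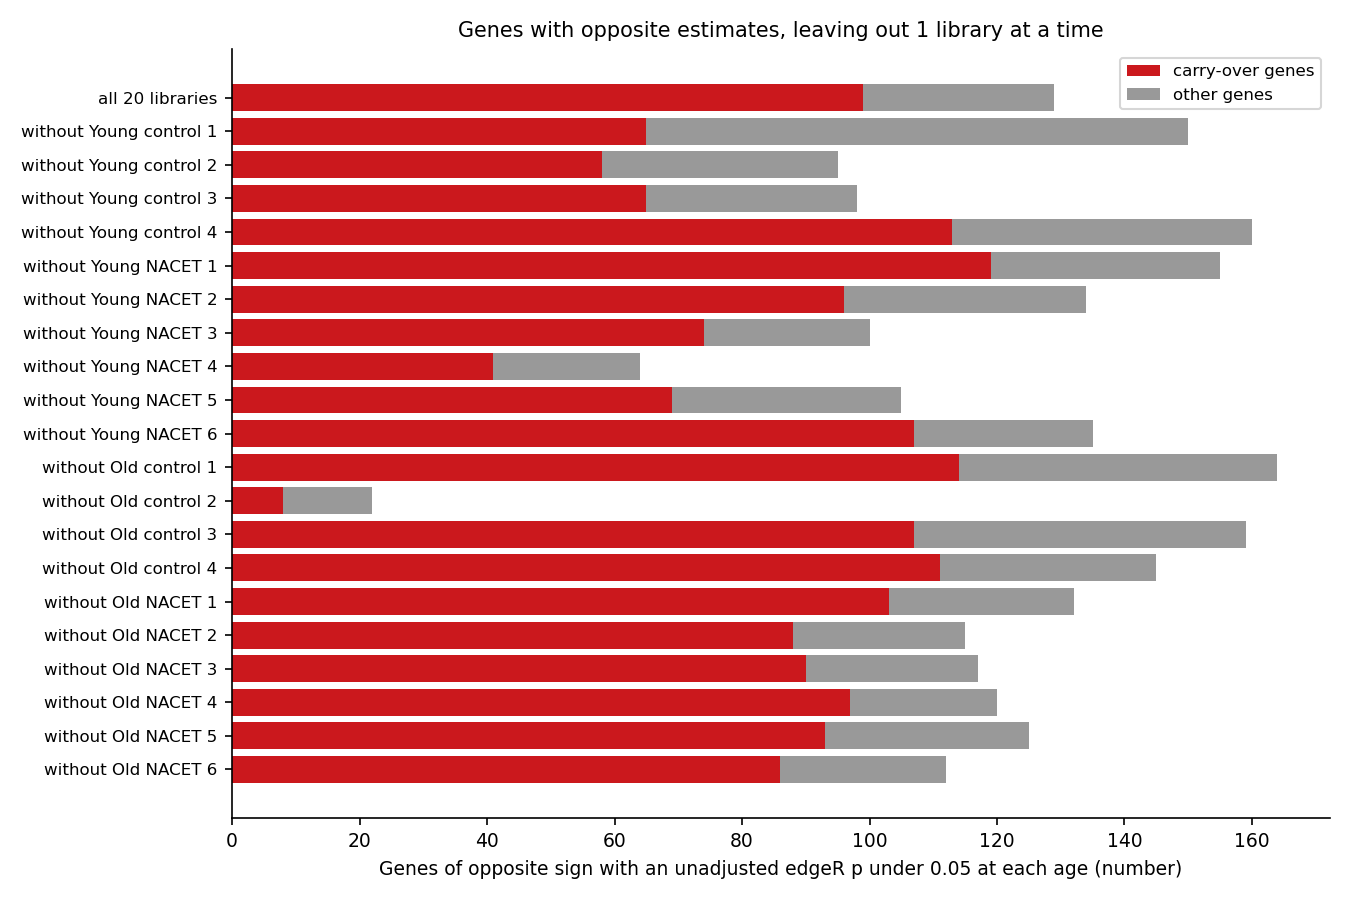
Number of genes (horizontal axis) with NACET estimates of opposite sign and an unadjusted edgeR p under 0.05 at each age, with all 20 libraries and with each library left out; red is carry-over genes and grey other genes. The count is 129 with all libraries and falls to 22 without old control 2 and to 64 without young NACET 4.

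Of 14 pigment epithelium genes 5 had an unadjusted p under 0.05, all negative, against 3.93% of all genes. Negative interactions were found in 13 of the 14, against 8176 of all 16993 genes, and the list's median was -0.99. Rpe65, the isomerase of the visual cycle, measured 4.62, 3.05, 3.40 and 15.8 CPM in young controls and 9.67, 15.8 and 22.7 CPM in young treated mice. Its levels in old mice were 14.2, 21.4, 16.5 and 8.80 CPM in controls and 4.20, 9.78 and 13.7 CPM under NACET (interaction -1.99 ± 0.53, unadjusted p = 0.00118, edgeR adjusted p = 0.186). Ttr, the retinol carrier transthyretin, had an interaction of -1.87 ± 0.53 and Rdh5, a retinol dehydrogenase, of -1.37 ± 0.41. Rgr, an opsin placed in the glial list that the pigment epithelium also expresses, had -1.71 ± 0.53. Here the high young control was replicate 4, and without it the median of the retinal pigment epithelium list was -2.17.

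Of 5 lens genes tested, 0 had an unadjusted p under 0.05, although their median interaction was 6.72, and without old NACET replicate 1 it was -1.13. All 5 blood genes tested had a negative interaction, against 8176 of all 16993 genes. Of the 5, 2 were past an unadjusted p of 0.05, against 3.93% of all genes. They were Hbb-b1 (-1.89 ± 0.79) and Hbb-b2 (-2.11 ± 0.79). The blood median went from -1.53 to 0.28 without old control replicate 2, where blood genes summed to 91.0 CPM. Connective tissue (12 genes) and skeletal muscle (7 genes) had 0 members at an unadjusted p under 0.05 and medians of 0.07 and 0.01.

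Gene families split along the same line. Of 16 keratins tested, 11 were negative past an unadjusted p of 0.05 and 10 were carry-over genes. Family members called negative or positive below are those past that p, against 3.93% and 2.27% of all genes. Of 11 desmosome proteins (desmogleins, desmocollins, plakophilins, desmoplakin, plakoglobin) 7 were negative and 1 positive. Claudins, proteins of tight junctions, had 4 negative and 1 positive of 15, led by Cldn4 (-8.30) and Cldn7 (-2.33), which are epithelial list members. Serpins had 3 negative of 16 and S100 proteins 2 of 10. Without the 5 libraries high in epithelial genes, 1 of 14 keratins, 0 of 8 desmosome proteins and 0 of 14 claudins that could then be tested were negative past that p. Those 5 libraries were chosen by the level of the epithelial list, which holds members of these families. Fewer negative members were therefore likely in advance and are no independent check. Only young NACET replicates 1 and 6 remained treated among young mice, so that fit had less power.

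Ribosomal, respiratory chain and proteasome families, which are expressed in every cell type, gave small values. Of 77 cytosolic ribosomal proteins, 35 were higher in old and lower in young mice and 4 the reverse. Over all 16993 genes these numbers were 3899 and 3779. Of the 77, 2 passed an unadjusted p of 0.05. The family's median was 0.10, moving to -0.04 without young control replicate 1. Respiratory chain subunits had 1 of 87 past that p, and proteasome subunits 0 of 36. Of 352 zinc finger (Zfp) genes tested, 23 were negative and 1 positive past that p. In all, 236 had negative estimates, against 8176 of all 16993 genes. The Zfp median of -0.05 lay between -0.06 and -0.03 in the leave-one-out fits. The share of all genes tested that were negative past an unadjusted p of 0.05 was 3.93%, and the share of the Zfp genes past it in either direction was 6.82%, against 6.19% of all genes. Of 269 solute carriers 17 were negative and 10 positive, of 41 collagens 3 and 2, of 36 histones 1 and 2, of 37 ATP-binding cassette transporters 1 and 2, and of 33 kinesins 1 and 4. Of 17 glutathione S-transferases 3 were negative and 0 positive, and of 68 heat shock proteins 0 and 3. Carry-over genes made up 17 of the 269 solute carriers, 13 of the 41 collagens and 5 of the 17 glutathione S-transferases. Of 4 crystallins tested 1 was positive, and of 34 small proline-rich and late cornified envelope genes 0 had enough counts to be tested.

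In the chaperone genes named here the larger estimate was that of old mice. Of 20 cytosolic heat shock genes, 3 were positive past an unadjusted p of 0.05, against 2.27% of all genes. Negative interactions were found in 2 of the 20, against 8176 of all 16993 genes, and the median was 0.15. The median of the cytosolic heat shock list was 0.08 without old NACET replicate 1, the library rich in lens genes. Hspa8, the constitutive HSC70 chaperone, measured 164, 147, 158 and 155 CPM in old controls and 185, 216 and 220 CPM in old treated mice, without overlap, and its young means were 185 ± 17.0 (n = 4) and 190 ± 32.5 CPM (n = 6). Its interaction was 0.39 ± 0.13 (edgeR adjusted p = 0.496). Hsph1 had 0.33 ± 0.13, and Cryab, a small heat shock protein that is also a lens crystallin, had 2.98 ± 1.28, with the lens-rich library in the group that was high.

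Of 24 genes of endoplasmic reticulum chaperones and the unfolded protein response, 4 had a negative estimate, against 8176 of all 16993 genes. The median was 0.10. Past an unadjusted p of 0.05, 3 were positive, against 2.27% of all genes. They were Xbp1, a transcription factor of that response (0.36 ± 0.12), Hspa5, the chaperone BiP (0.37 ± 0.15), and Ddit3, the factor CHOP (0.21 ± 0.09). Xbp1 measured 56.5, 54.7, 64.2 and 56.3 CPM in old controls and 69.2, 78.1 and 82.2 CPM in old treated mice, which did not overlap. In young mice the Xbp1 means were 68.8 ± 10.6 (n = 4) and 71.4 ± 8.40 CPM (n = 6). Slc38a2, an amino acid transporter of the ATF4 response, had 0.23 ± 0.09 and was the 1 of 28 genes of that response past an unadjusted p of 0.05. The edgeR adjusted p was 0.498 for Xbp1, 0.685 for Hspa5, 0.774 for Ddit3 and 0.651 for Slc38a2.

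Immediate early genes, which neurons transcribe within minutes of activity, had 19 members tested. Past an unadjusted p of 0.05, 4 were negative, against 3.93% of all genes. Estimates were negative in 11 of the 19, against 8176 of all 16993 genes, with a median of -0.09. Egr1 measured 21.5, 11.4, 9.80 and 26.1 CPM in old controls and 4.46, 6.59 and 8.05 CPM in old treated mice, without overlap. In young mice it measured 42.4, 34.2, 14.0 and 12.6 CPM in controls and 14.0, 16.8 and 27.9 CPM under NACET (interaction -0.93 ± 0.44). Nr4a1 had -0.63 ± 0.24, Egr4 -1.18 ± 0.51 and Klf4, which surface epithelium also expresses and which followed the epithelial list with a correlation of 0.918, -2.10 ± 0.70. In 18 of the 19 genes the estimates of the 2 ages had the same sign, so the values differed in size; the exception was Klf4.

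Of 28 NRF2 targets and glutathione genes, 4 were negative past an unadjusted p of 0.05, against 3.93% of all genes. Estimates were negative in 11 of the 28, against 8176 of all 16993 genes, with a median of 0.03. The 4 past that p were the glutathione S-transferases Gsta4 (-1.59 ± 0.45) and Gsta3 (-1.0 ± 0.42), glutathione reductase Gsr (-0.20 ± 0.09) and malic enzyme Me1 (-0.23 ± 0.10). Gsta4 measured 19.2, 62.6, 20.2 and 21.3 CPM in old controls and 16.6, 17.7 and 19.0 CPM in old treated mice, so that old control replicate 2 was again the high library, and it followed the epithelial list with a correlation of 0.929. Without old control replicate 2, 1 of the 28 NRF2 targets and glutathione genes was negative past that p.

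The interferon and antigen presentation list had a median of -0.42. Estimates were negative in 19 of 24 genes, against 8176 of all 16993 genes. Past an unadjusted p of 0.05, 3 were negative, against 3.93% of all genes. They were Tap2, a peptide transporter (-0.40 ± 0.16), and the class I molecules H2-D1 (-0.34 ± 0.15) and H2-K1 (-0.38 ± 0.18). The list's summed level was 554 CPM in young NACET replicate 3 and between 263 and 319 CPM in the other 9 young libraries. The interferon and antigen presentation list had a median of 0.11 once young NACET replicate 3 was left out. Inflammation and complement genes had 0 of 17 past an unadjusted p of 0.05, and clock genes 1 of 20, which was Rorb.

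For markers of the retinal cell types, counts past an unadjusted p of 0.05 stand against 6.19% of all genes, in either direction. Rods (14 genes), amacrine and horizontal cells (14), ganglion cells (14) and endothelium with pericytes (15) had 0 members at an unadjusted p under 0.05. Cones had 1 of 11, Opn1sw, the short-wavelength opsin, which measured 487, 776, 521 and 609 CPM in old controls and 396, 452 and 536 CPM in old treated mice (interaction -0.39 ± 0.16). Bipolar cells had 1 of 14 (Scgn, secretagogin, 0.23 ± 0.09), microglia 1 of 14 (Itgam, -1.17 ± 0.50, which followed the epithelial list with a correlation of 0.839) and Muller glia with astrocytes 3 of 17 (Rgr, Pax2 and Crym). Ganglion cell genes had the highest median of the neuronal lists, 0.16, with 9 of 14 higher in old and lower in young mice, against 3899 of all 16993 genes. The median of the retinal ganglion cells list was 0.08 without young control replicate 1.

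**Figure D5:**
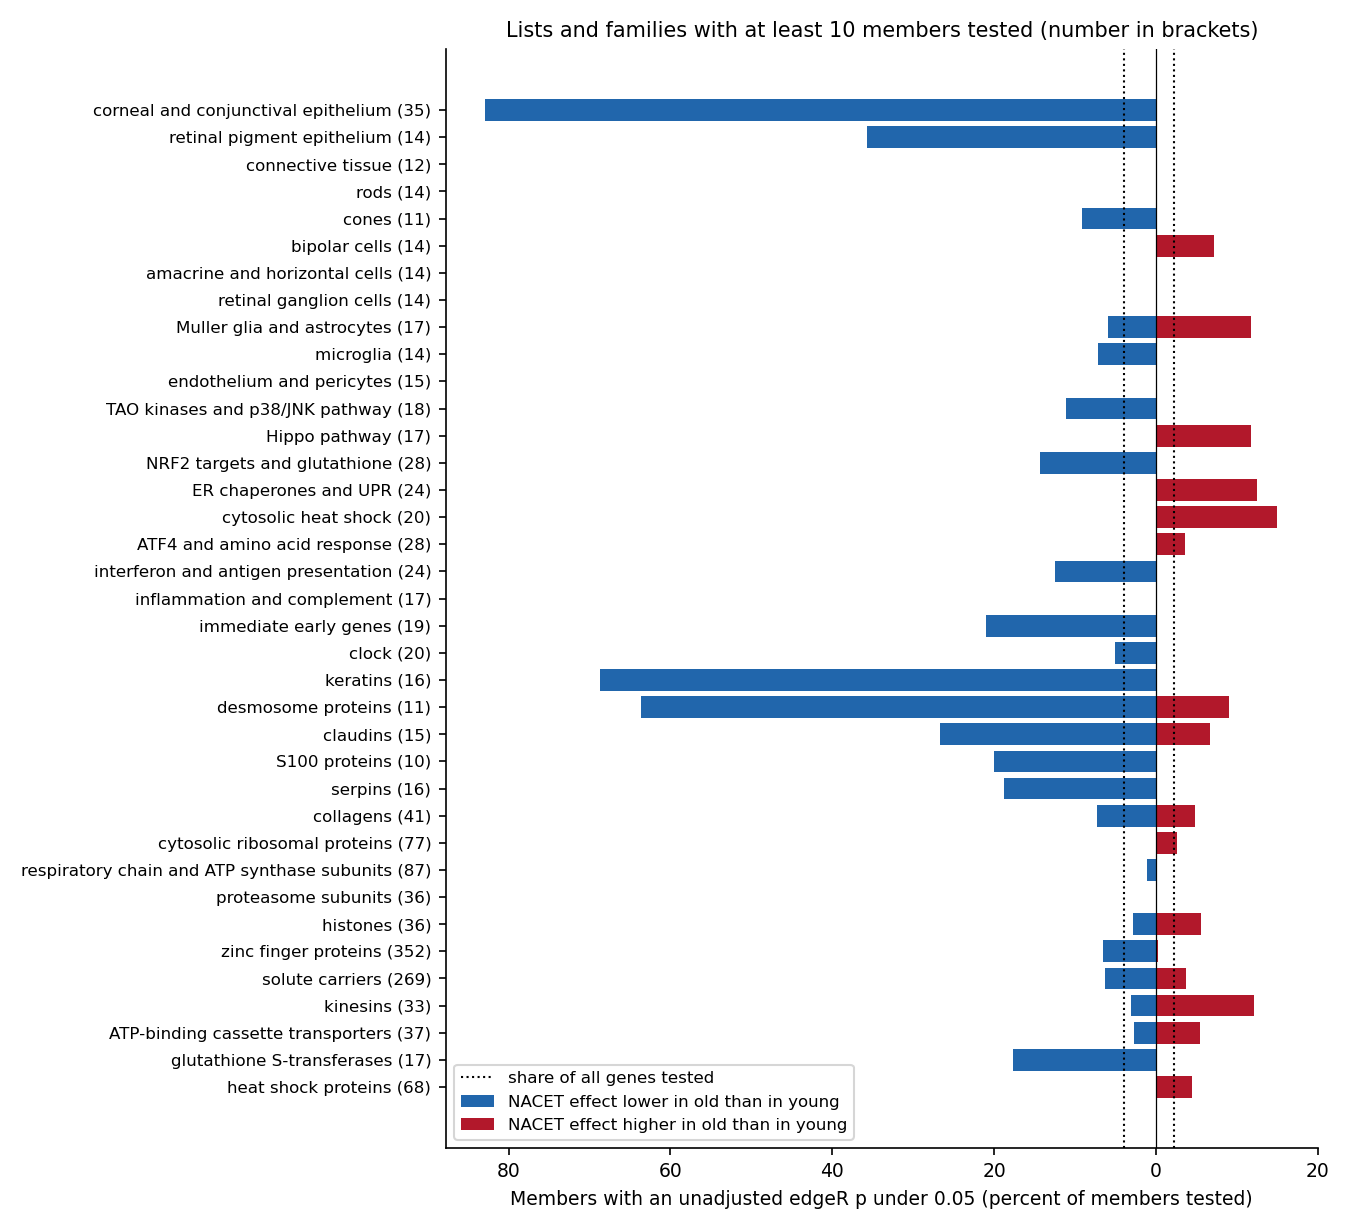
Share of tested members with an unadjusted edgeR p under 0.05 for the interaction (horizontal axis, percent), to the left where the NACET effect was lower in old and to the right where it was higher in old mice, for lists and families with at least 10 tested members (number in brackets). Dotted lines are the shares of all genes tested, 3.93% and 2.27%; corneal and conjunctival epithelium, keratins and desmosome proteins reach 82.9%, 68.8% and 72.7% in both directions together.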

How the data were processed

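Polyadenylated RNA of 20 retinas was sequenced on 1 platform. The authors aligned single-end reads to mm9 with TopHat2 2.1.0 and Bowtie and counted them per gene with HTSeq 0.11.2 without strand, so overlapping and antisense genes cannot be told apart; the annotation is not given in the sources used here. The deposited counts, whole and not normalized, cover 35006 genes, of which 8497 had no count; a row without a name held at most 0.00218% of a library and was left out, as were the summary rows. Library totals of 17.7 to 31.1 M set the precision, and CPM below 1 rests on few reads.

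All libraries entered 1 fit of 4 groups in edgeR 4.0.16 (R 4.3.3; TMM, filterByExpr, quasi-likelihood test, Benjamini-Hochberg adjustment over 16993 genes), with the interaction as a contrast, and the fit was tested on simulated data. CPM use normalized library sizes, and correlations use log2 CPM with a prior count of 1. Alternatives were DESeq2 1.42.0, limma voom 3.58.1, other normalizations and filters, a robust fit, a replicate block, sex or the epithelial level as covariates, subsets by age, sex and Xist, and leaving out each library. Smallest p within each direction chose 12 retinal genes each, besides Taok3, Krt5 and Dsp, 8 carry-over genes and the 3 leading members of each of 24 lists and 18 families; 1 gene that the rule chose is not reported here, and other names are given as chosen after their values were seen. Members and lists were chosen with earlier results of these data known. Positions come from an mm9 annotation, in which 32 of 32 named genes matched.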

Additional observations from a re-analysis of the deposited data

Results flagged for a closer look

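A library at the edge of its group stood far from the others (Dixon's test at 95%) in 21 of 148 groups tested. The nominal rate of 1 in 20 is no yardstick here. Most of the genes were chosen by their p in these libraries, and carry-over genes and lists rise together. Of the 21, 11 were in old control replicate 2. In that library Krt5 was 171 CPM, Dsp 42.3 CPM, Krt6a 24.1 CPM, Trim29 15.2 CPM, Aqp3 13 CPM, Dsc3 11.1 CPM, Adh7 8.39 CPM, Liph 2.24 CPM and Tmem154 1.99 CPM. The summed level of corneal and conjunctival epithelium genes was 846 CPM there and that of blood genes 91 CPM.

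Old NACET replicate 1 had a summed level of lens genes of 12800 CPM (1.28e+04) and of connective tissue genes of 175 CPM. Young control replicate 4 had 295 CPM of retinal pigment epithelium genes and 0.846 CPM of Tmem72. Old NACET replicate 5 had 164 CPM of Rorb, the highest of its group, and 0.758 CPM of Gm12680, the lowest. Old NACET replicate 3 had 0.195 CPM of Dsc3. Among young mice, control replicate 2 had 11.8 CPM of Alk and 1.08 CPM of Gm12680, and NACET replicate 5 had 9.71 CPM of Zbtb16. Zfp773 was listed because every treated library lay below the controls in old and above them in young mice, with an interaction of -0.92.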

How the results depend on the processing

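The count of calls was 0 with all libraries in edgeR, 86 in DESeq2 (61 of them carry-over genes) and 49 without a filter on low counts (43). With 1 library left out it was 0 to 77, again with carry-over genes in brackets. It was 33 (29) without young control 4, 77 (69) without young NACET 1 and 45 (43) without young NACET 6. It was 66 (59) without old control 1, 22 (20) without old control 3 and 1 (0) without old NACET 5. DESeq2 gave -0.53 for the Taok3 interaction (adjusted p = 0.00239), -8.39 for the Krt5 interaction (0.00102) and -8.57 for the Dsp interaction (0.000117), and the unfiltered edgeR fit -0.54 (0.0308), -8.49 (0.0273) and -8.62 (0.0273). With 1 library left out, Taok3 lay between -0.59 and -0.48 (adjusted p 0.0305 to 0.848), Krt5 between -8.88 and -6.20 and Dsp between -9.06 and -6.18. Genes at an unadjusted p under 0.05 numbered 794 (without old control 2) to 1715 (without young control 1). Genes of opposite sign, 129 with all libraries, numbered 52 in limma voom, 194 without a filter, 42 with mice of 119 and 668 days, 44 with the epithelial covariate, 28 without 5 libraries high in epithelial genes, 22 without old control 2 and old NACET 1, 33 with all carry-over genes left out, and 22 to 164 with 1 library left out. The median of the epithelium list interaction was -3.53, -0.09, -0.28 and -3.33 in the voom, covariate, 5-library and 2-library alternatives and -5.43 to -3.25 with 1 library left out. The covariate and the 5 libraries were taken from that list's own level, so -0.09 and -0.28 are no independent check. The 3 alternatives that leave out several libraries together or all carry-over genes were chosen after seeing the data. The cause of these changes was not tested.

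With the replicate number as a block there were 0 calls, 882 genes at an unadjusted p under 0.05 and 110 of opposite sign, and Taok3 had -0.54 (adjusted p = 0.0862). Libraries of the same number had deviations that correlated at a median of 0.011 over 26 pairs (-0.152 to 0.224), and 1 of 16 libraries correlated best with its own number, so the numbers did not pair the mice.

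Treated mice differed from controls in age at both ages and in labelled sex among young mice, and by Xist counts 1 of 4 old controls and 0 of 6 old treated mice did not match the male label. Low genes such as Aqp3 and Dsc3 are limited by depth, several libraries holding 0 reads.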

Other observations

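A group of genes outside the lists, chosen after their values were seen, was high in young control replicate 4 and old NACET replicate 3 together. Optc, the eye proteoglycan opticin, was 42.2 and 26 CPM in these libraries and 1.2 to 7.25 CPM in the other 18. Fbln1, a fibulin of the extracellular matrix, was 87.4 and 30.6 CPM against 1.2 to 8.33 CPM. Gpx3, the secreted glutathione peroxidase, was 101 and 75.8 CPM against 4.18 to 22.1 CPM. Best2, a chloride channel, was 9.26 and 3.95 CPM against at most 1.16 CPM, and Cldn2, a claudin, 13.7 and 6.30 CPM against at most 1.72 CPM.

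Further retinal genes with estimates of opposite sign past an unadjusted p of 0.05 at each age, also outside the rule, were Aurka, a mitotic kinase (-0.79), Chaf1a, a histone chaperone subunit (-0.57), Sgk3, a kinase (-0.72), and Wnt2b, a secreted Wnt ligand (0.37).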
